A study of Mus musculus with 5 samples.

Results

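The 7 genes described here, Lyz1, Lyz2, Chil1, Chil3, Chia1, Retnla and S100g, encode secreted or calcium-binding proteins of alveolar type 2 (AT2) cells and myeloid cells. They were taken from the expression tables by symbol, 7 of 32285 genes, and all 7 had unique molecular identifiers (UMIs) in each of the 5 libraries. They were chosen by their measured levels in AT2 cells and macrophages and by the difference of those levels between genotypes, so for these classes the levels and differences of the members are given as a description, with no test. Droplet-based 3′ single-cell RNA was measured in dissociated whole lungs from E18.5 mouse embryos, 1 library per embryo. Per the labels, 2 embryos carried 1 knockout allele of Zswim8 (Zswim8+/-, Het1 and Het2) and 3 carried only knockout alleles (Zswim8-/-, KO1, KO2 and KO3). Values per library are always given in the order Het1, Het2, then KO1, KO2, KO3. No wild-type embryo was analysed here, and the labels name no Cre, transgene or drug.

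AT2 cells are the alveolar cells that make and secrete pulmonary surfactant, and they mature late in gestation. Lysozymes cut the peptidoglycan wall of bacteria. Mice have a pair of neighbouring lysozyme genes, of which Lyz2 (lysozyme M) is known from macrophages, neutrophils and AT2 cells and Lyz1 (lysozyme P) from Paneth cells of the gut. Chia1 is an acidic mammalian chitinase, an enzyme that cuts chitin, while Chil1 and Chil3 (Ym1) are chitinase-like proteins that bind sugars without chitinase activity. Retnla (Fizz1 or Relm-alpha) is a secreted resistin-like protein known from type 2 inflammation and from alternatively activated macrophages, where the transcription factors STAT6 and C/EBP act on its promoter. S100g (calbindin D9k) is a cytosolic calcium-binding protein known from vitamin D regulated calcium uptake in the gut.

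The members lay on 5 chromosomes of the GRCm38 build (GENCODE M21). Lyz1 (ENSMUSG00000069515) spanned chr10:117287797-117292868 and Lyz2 (ENSMUSG00000069516) chr10:117277331-117282321, both on the minus strand and 5476 bases apart. Chia1 (ENSMUSG00000062778, chr3:106113229-106132120, plus strand) and Chil3 (ENSMUSG00000040809, chr3:106147554-106167564, minus strand) were also neighbours, 15434 bases apart. Chil1 (ENSMUSG00000064246) lay at chr1:134182176-134190181 on the plus strand, Retnla (ENSMUSG00000061100) at chr16:48842551-48844461 on the plus strand and S100g (ENSMUSG00000040808) at chrX:162961992-162964599 on the minus strand. The longest coding transcripts of Lyz1 and Lyz2 were identical at 96.0% of 1262 aligned bases. Of the 401 windows of 100 bases in the last 500 bases of Lyz1, 1.25% also occurred in Lyz2, and the same share held the other way. Chil3 and its near copy Chil4 were identical at 94.4% of 1538 aligned bases, with 6.73% of such windows shared, and Chil4 had 0 UMIs in every library. How reads that fit more than 1 gene were counted is not given in the sources used here, so values of Lyz1 against Lyz2 are uncertain where reads fall in shared windows.

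The promoters of the lysozyme pair are shown because the genes shared much of their sequence and yet had different cell distributions, and that of Retnla because the STAT6 and C/EBP letters in it are known. RefSeq start sites (GRCm38.p6) were used for all 7 members, and the window ran from 250 bases before to 50 after the start. Over this window Lyz1 and Lyz2 were identical at 83.6% of 298 aligned bases, and the longest identical run of 86 bases began 50 bases before the start of both. The stretches below run 5′ to 3′ on the gene's strand and end before the first transcribed base in GENCODE, at positions -220 to -51 for the lysozymes (chr10:117292919-117293088 for Lyz1, chr10:117282323-117282492 for Lyz2, minus strand) and -250 to -59 for Retnla (chr16:48842359-48842550, plus strand). Capitals mark, on either strand, TTNNGNAA, a C/EBP core, in the lysozymes also AGGAAG, the core bound by PU.1 and other ETS factors, and in Retnla also a STAT6 site, TTC and GAA parted by 4 bases of any kind. The ETS letters of Retnla, at -197, overlap its C/EBP letters at -196 and are not marked apart.
Lyz1: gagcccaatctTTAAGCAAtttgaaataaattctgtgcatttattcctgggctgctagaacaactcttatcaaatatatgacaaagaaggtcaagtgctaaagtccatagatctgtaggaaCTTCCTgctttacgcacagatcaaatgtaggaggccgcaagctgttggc
Lyz2: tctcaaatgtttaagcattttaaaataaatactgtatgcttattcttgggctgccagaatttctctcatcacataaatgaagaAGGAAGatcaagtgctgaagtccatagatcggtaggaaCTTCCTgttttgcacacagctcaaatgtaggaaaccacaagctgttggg
Retnla: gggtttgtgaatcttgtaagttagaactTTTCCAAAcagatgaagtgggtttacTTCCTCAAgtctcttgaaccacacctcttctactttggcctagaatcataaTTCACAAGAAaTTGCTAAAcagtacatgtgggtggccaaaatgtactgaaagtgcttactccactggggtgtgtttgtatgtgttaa
The ETS letters at position -99 were common to both lysozymes, and Lyz2 had a further copy at -137 that Lyz1 lacked. In Lyz1 the C/EBP letters stood at -209, and in Lyz2 they stood at -55, partly past the printed end. Retnla was the 1 member of 7 with the STAT6 letters, at -145, followed at -134 by C/EBP letters, and 6.95% of 32851 mouse promoters of this length hold such STAT6 letters. The C/EBP core was found in 6 of 7 members, against 40.7% of promoters, and the ETS core in 5 of 7, against 35.4%. These are matches of letters, not measured binding.

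Total depth ran from 56608582 to 93708304 UMIs per library, and 3051 to 4634 cells per library passed the filters, with medians of 9714 to 12676 UMIs per cell. Zswim8, the targeted gene, was measured at 36.3 and 38.4 CPM (UMIs of the gene in 1000000 UMIs of the class) in the Het libraries and at 38.1, 39.1 and 40.9 CPM in the KO libraries over all kept cells, so its 3′ signal did not separate the labels (log2 fold change 0.05 ± 0.06 SE, edgeR quasi-likelihood test with Benjamini-Hochberg adjustment, adjusted p = 0.645). The deleted part of the gene is not named in the labels, so a 3′ tag outside it would check nothing. Y-linked and Xist UMIs showed Het1, Het2 and KO3 to be male and KO1 and KO2 female, which matters for the X-linked S100g. Libraries shared 0 to 6 cell barcodes per pair. Haemoglobin-filled barcodes with few other genes (red-cell barcodes) served as the measure of free RNA. Nothing in the labels says that embryos came from separate litters, and the p-values measure only the spread between these 5 samples.

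AT2-like cells were named from clusters made without the 7 members and their relatives. All 11 AT2 markers were found in both clusters of this class, which held 402 and 311 cells of the Het libraries and 154, 164 and 249 cells of the KO libraries, with 5446871 to 12133253 UMIs. Cluster 15 (216, 129, 42, 36 and 89 cells in the same order) had Lyz1, Retnla and S100g among its 10 leading genes by fold even though they had no part in the clustering. Cluster 8 (186, 182, 112, 128 and 160 cells) was led by Cldn18, Slc34a2, Sftpc and Egfl6, and of its first 10 Cldn18 and Ager were AT1 markers. Its cells held 3.50 times the median UMI count of their library. AT1 markers came to 7774 and 7506 CPM in Het and 5805, 4814 and 5640 CPM in KO in cluster 8. In cluster 15 they came to 1435 and 1562 against 1757, 1483 and 1811 CPM. At Leiden resolution 2 the deep AT2-like cluster held 58 and 52 Het cells and 100, 99 and 136 KO cells. A deep AT1-like cluster held 130 and 134 against 25, 39 and 45 cells. The part of AT1 RNA in the results was not tested. Endothelial markers came to 2829 and 2880.2 CPM in cluster 8 of the Het libraries and to 421, 441 and 575 CPM in the KO libraries, and their part in the results on the whole class was not tested. In cluster 15 the same 14 markers came to 79.9 and 58.0 CPM in the Het libraries and 39.7, 31.6 and 35.3 CPM in the KO libraries, and values are given for both the whole class and cluster 15 alone. Other marker sums still differed in cluster 15, with erythroid markers at 14542 and 9895 CPM in Het and 2279, 6595 and 5563 CPM in KO, club markers at 885 and 848 against 417, 716 and 436 CPM, and macrophage markers at 178 and 201 against 103, 72.7 and 116 CPM. Of the macrophage sum, Lpl, singled out after its values had been seen, gave 122.5 and 126.2 CPM in Het and 34.5, 45.8 and 60.6 CPM in KO. The 19 macrophage markers other than Car4 and Lpl came to 54.9 and 73.0 CPM in Het. In KO they came to 69.0, 26.9 and 55.3 CPM, which overlapped. The part of these marker sums in the results was not tested.

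Most of the RNA of 5 members came from AT2-like cells. These cells made up 5.0% to 8.7% of the kept cells and held 93.3% to 96.6% of all Lyz1 UMIs, 86.4% to 95.4% of Retnla UMIs and 85.8% to 96.8% of S100g UMIs. For Chia1 the share was 52.3% to 86.1%. Chil1 was split: AT2-like cells held 83.7% and 82.1% of its UMIs in the Het libraries but 50.1%, 61.8% and 72.8% in the KO libraries, where neutrophil-like cells held 39.4%, 18.9% and 16.6% (4.99% and 6.76% in the Het libraries). Lyz2 was a myeloid transcript by share, with 10.5% and 12.7% in AT2-like cells of the Het libraries and 1.54% to 3.30% in those of the KO libraries. Chil3 was almost absent from AT2-like cells, with 5, 2, 0, 1 and 0 UMIs in Het1, Het2, KO1, KO2 and KO3. Fewer cells of a type and less RNA per cell both lower a share over the whole library. The levels within classes given next do not depend on the number of cells in the class. They still depend on the mix of clusters within it, as do shares of cells with a transcript. Cluster 15, where the members were higher, held 216 of 402 and 129 of 311 AT2-like cells of the Het libraries. In the KO libraries it held 42 of 154, 36 of 164 and 89 of 249. The part of this mix in the differences over the AT2-like class was not tested.

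**Figure D1:**
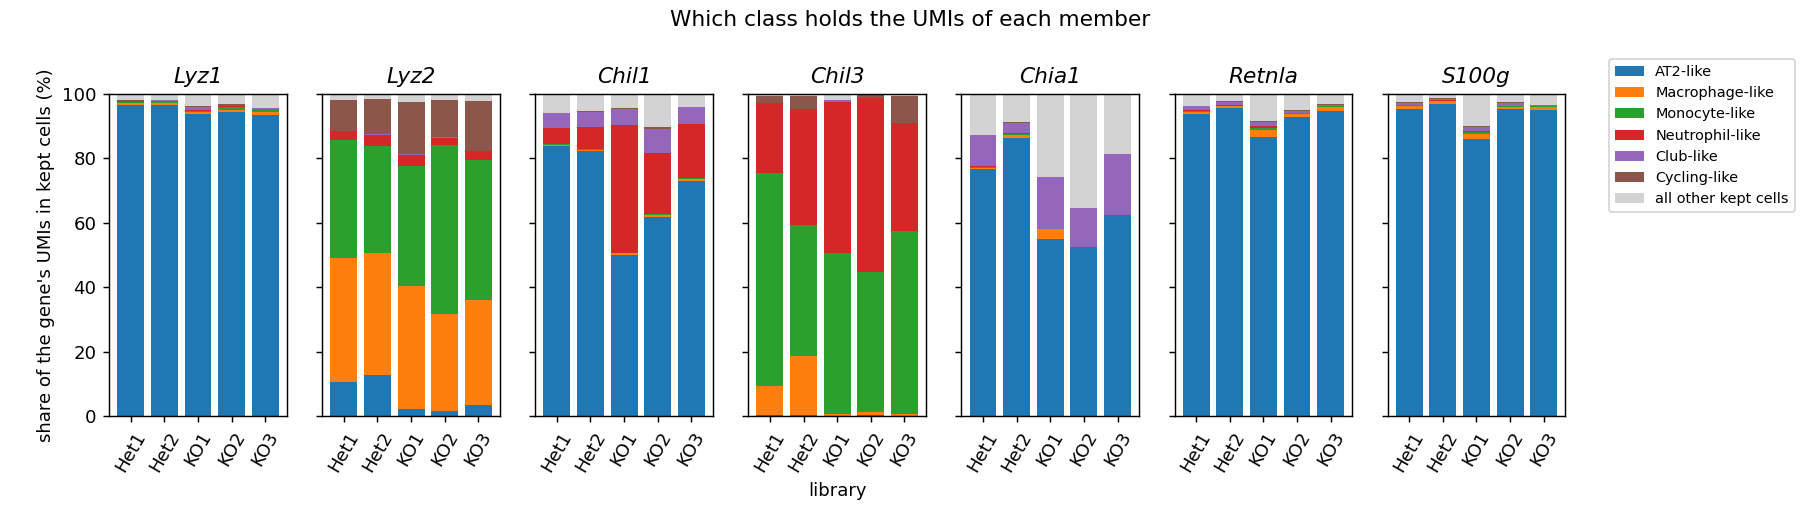
Stacked bars give, for each member and library, the share of the gene's UMIs in kept cells (vertical axis, percent) that came from 6 classes of cells, with all other kept cells in grey. Lyz1, Retnla and S100g are almost wholly AT2-like in each library, Lyz2 and Chil3 are mainly monocyte-like, macrophage-like and neutrophil-like, and the neutrophil-like part of Chil1 is larger in the KO libraries.

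In AT2-like cells, 6 of the 7 members were expressed above the red-cell barcodes in all 5 libraries, and each of the 6 was lower in every KO library than in either Het library. Over all 13745 genes tested in this class, 26.2% had KO levels wholly below the Het levels, and 12.2% fell at an adjusted p below 0.05 (20.7% in either direction), and since the genes were picked for this contrast nothing is read from their count. The order of the 6 by mean level in the Het libraries was Lyz2, Lyz1, Retnla, Chil1, S100g and Chia1, and the first 3 did not differ beyond their spread. The order is of 3′ UMIs, counted once per molecule and not per length.

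The lysozymes had lower levels in all 3 KO libraries. Lyz2 stood at 1597 CPM in Het1 and 1803 CPM in Het2, and at 276, 171 and 387 CPM in the KO libraries. The groups did not overlap, and the log2 fold change was -2.64 ± 0.35 (SE, 2 against 3 libraries). Lyz1 stood at 1969 and 1349 CPM in the Het libraries and at 423, 249.6 and 522 CPM in the KO libraries, a log2 fold change of -2.09 ± 0.37. KO2 was the lowest library for both genes and KO3 the highest of the KO group. Macrophage markers, 19 to 21 of 21 detected, summed to 186.8 and 191.8 CPM in the Het libraries and 91.6, 83.1 and 109 CPM in the KO libraries, with Krt79 and Siglecf at 0 in Het1 and KO1. The gap lay in Car4 (42.4 and 47.2 against 1.29, 0.415 and 2.48 CPM) and Lpl (95.9 and 84.0 against 35.8, 29.5 and 39.9 CPM), which were singled out after their values had been seen. The other 19 markers came to 48.5 and 60.6 CPM in Het and 54.5, 53.2 and 66.5 CPM in KO, which overlapped. The part of macrophage RNA in the result was not tested. Erythroid markers came to 6611 and 5123 CPM in Het and 1625, 2076 and 2182.4 CPM in KO AT2-like cells, and their part was not tested either.

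Among the chitinase family, Chil1 was measured at 826 and 736 CPM in the Het libraries and at 87.4, 158 and 207 CPM in the KO libraries (log2 fold change -2.41 ± 0.32). KO1 was lowest here. Chia1, the one active chitinase of the group, was scarce, at 22.2 and 16.9 CPM in the Het libraries (269 and 199 UMIs) and 3.12, 3.53 and 2.57 CPM in the KO libraries (17, 34 and 30 UMIs), a log2 fold change of -2.73 ± 0.20. Red-cell barcodes held 0 to 0.399 CPM of Chia1.

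Retnla reached 1619.5 and 1443 CPM in the Het libraries and 214, 313 and 361 CPM in the KO libraries, with a log2 fold change of -2.41 ± 0.18. S100g was measured at 618 and 513 CPM in the Het libraries and at 146, 98.1 and 188 CPM in the KO libraries (-2.00 ± 0.27). The male KO library, KO3, had the highest S100g of the KO group and still lay below both male Het libraries, and with sex as a covariate the log2 fold change was -1.65.

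**Figure D2:**
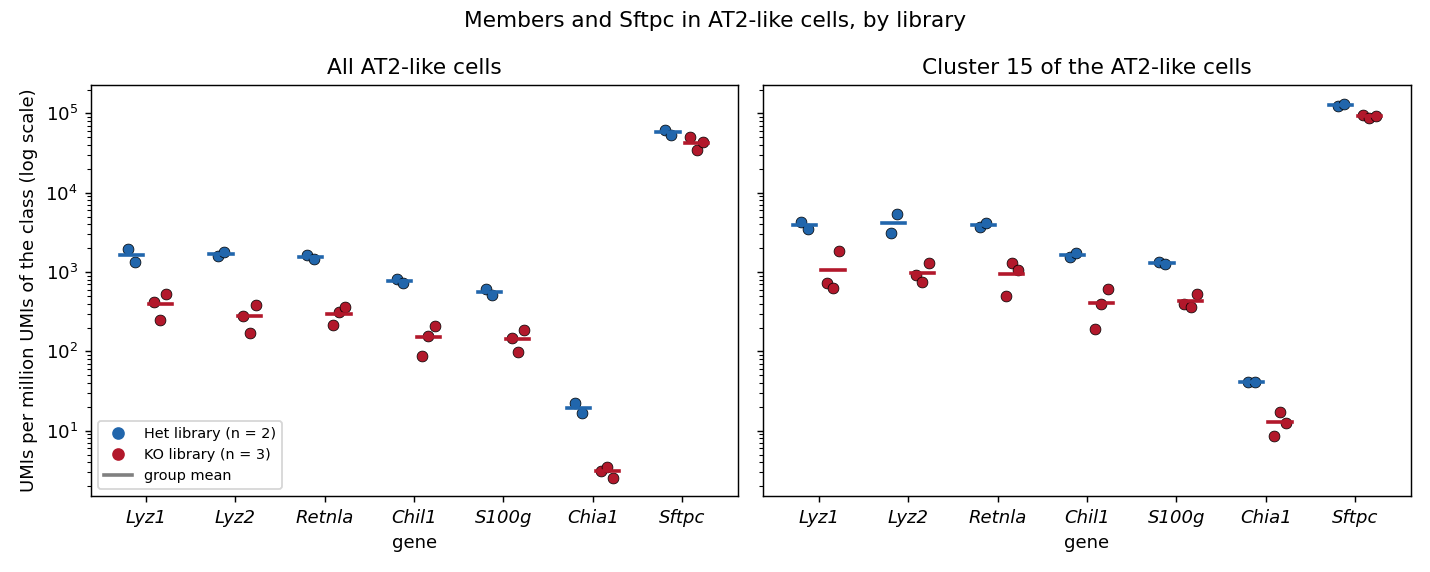
Points are libraries and short lines group means of CPM (log scale) for 6 members and Sftpc, in all AT2-like cells (left) and in cluster 15 alone (right). For each of the 6 members the 3 KO libraries lie below the 2 Het libraries on both sides, by more than the step for Sftpc.

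Cluster 15 alone gave the same picture at higher levels. Retnla was 3730.5 and 4127 CPM in the Het libraries and 503, 1291 and 1064 CPM in the KO libraries (log2 fold change -2.16 ± 0.44). Lyz1 was 4292 and 3480.4 CPM against 722, 624 and 1823 CPM (-1.97 ± 0.60), and Lyz2 3068 and 5329 CPM against 924, 744 and 1287 CPM (-2.19 ± 0.40). Chil1 was 1564 and 1751 CPM against 189.6, 401 and 617 CPM (-2.11 ± 0.52), S100g 1339.6 and 1280.4 CPM against 391, 362 and 529 CPM (-1.71 ± 0.12), and Chia1 40.6 and 41.1 CPM against 8.62, 17.4 and 12.3 CPM (-1.80 ± 0.25). None of the 6 overlapped between the groups, as for 10.5% of 8780 genes with at least 50 UMIs in cluster 15 that lay wholly lower in KO, and nothing is read from the count. From 36 to 216 cells stood behind each value. In cluster 8 alone the 6 differences ran from -1.62 for S100g to -2.81 for Chia1.

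Both the share of cells with the transcript and the amount per cell were lower in the KO libraries. With each AT2-like cell thinned to 5000 UMIs (7 to 23 shallower cells per library left out), Retnla was detected in 70.1% and 70.5% of cells of the Het libraries and in 41.2%, 41.0% and 45.9% of cells of the KO libraries. The unthinned shares were 77.4%, 78.8%, 63.6%, 69.5% and 69.5%. In endothelial-like cells, which should lack Retnla, thinned shares were 4.59%, 5.36%, 2.81%, 1.84% and 2.38%. Median depths were 18415 to 39248 UMIs for AT2-like and 6923 to 9937.5 UMIs for endothelial-like cells.

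Chil1 was detected in 76.5% and 74.2% of thinned AT2-like cells of the Het libraries and in 22.9%, 39.7% and 42.6% of those of the KO libraries. For S100g the shares were 66.5% and 68.5% against 34.4%, 27.6% and 40.1%. Lyz1 differed less by share, with 48.6% and 43.7% against 33.6%, 24.4% and 30.6%, and cells with 10 or more Lyz1 UMIs made up 26.6% and 19.5% in the Het libraries and 7.63%, 5.13% and 12.0% in the KO libraries. Cells with at least 5 Lyz2 UMIs made up 29.9% and 34.1% in the Het libraries and 7.63%, 2.56% and 12.4% in the KO libraries. High Lyz1 and high Lyz2 thus lay in a minority of cells, whereas Chil1 and S100g were spread over most Het cells.

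Within cluster 15, high Lyz1 and high Lyz2 were often found in different cells. Among 205 thinned cluster 15 cells of Het1, 27 had at least 5 UMIs of both genes, 55 of Lyz1 alone, 48 of Lyz2 alone and 75 of neither. In Het2, 16 of 120 cells had both, 24 Lyz1 alone, 41 Lyz2 alone and 39 neither. The share with both, 13.2% and 13.3%, lay close to the product of the single shares, 14.6% and 15.8%. Spearman's rho between the pair over cluster 15 cells was 0.00 and -0.09 in the Het libraries and 0.24, 0.34 and 0.09 in the KO libraries (27, 32 and 86 cells). In cluster 8 rho was 0.41 and 0.29 in the Het libraries and 0.25, 0.24 and 0.14 in the KO libraries, and over all AT2-like cells it was 0.13 to 0.26. Over all AT2-like cells of the Het libraries, 13.6% and 12.3% were high in both, above the 9.80% and 9.49% that the single shares multiply to. Retnla and S100g had rho of 0.37 and 0.42 in the Het cells of cluster 15, and Chil1 and S100g 0.32 and 0.31. Cells of a library share its depth and free RNA, and these coefficients are descriptions.

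**Figure D3:**
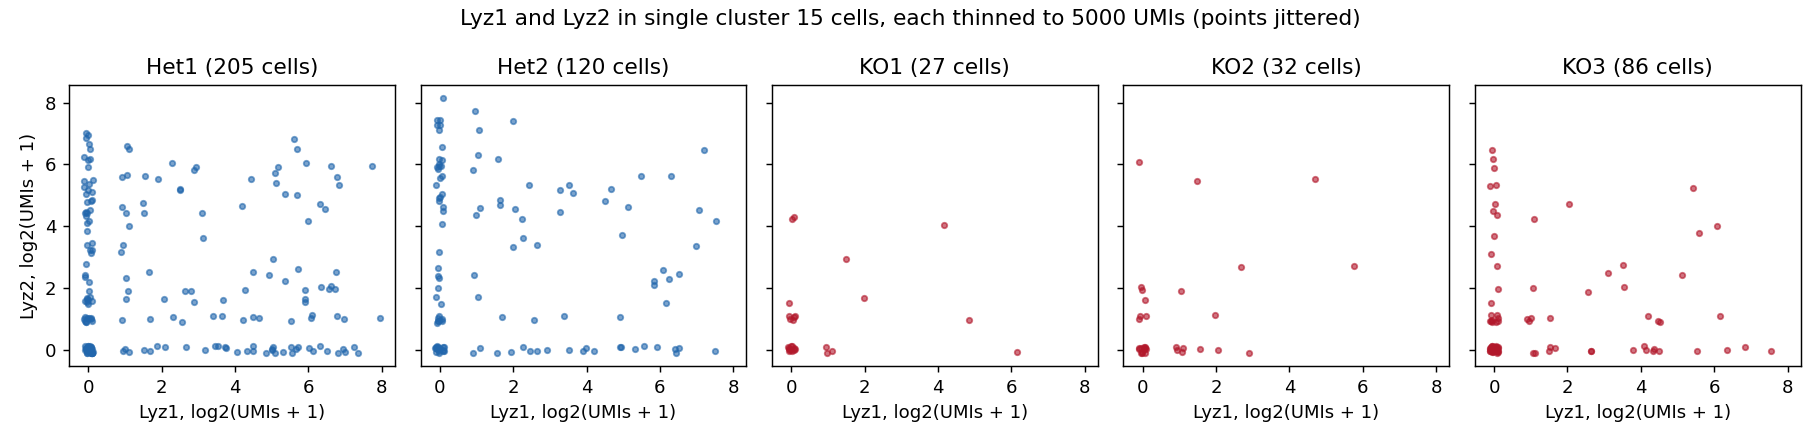
Each point is a cluster 15 cell thinned to 5000 UMIs, with Lyz1 on the horizontal and Lyz2 on the vertical axis, both as log2(UMIs + 1), in 1 panel per library. Many cells of the Het libraries lie along either axis, with 55 and 48 of 205 Het1 cells high in 1 lysozyme alone, and the KO panels hold fewer cells and fewer high ones.

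Other AT2 genes gave the background for these differences, using lists chosen with earlier results known. Sftpc, the surfactant protein C gene, was 62498 and 53285 CPM in AT2-like cells of the Het libraries and 50101, 34657 and 43791 CPM in the KO libraries, a log2 fold change of -0.46 ± 0.20 that did not pass the test (edgeR quasi-likelihood, adjusted p = 0.18). In cluster 15 alone Sftpc fell by 0.58 ± 0.06 (edgeR quasi-likelihood, adjusted p = 2.28e-09). In the other AT2-like cluster alone the log2 fold change of Sftpc was 0.018 ± 0.20, which did not pass (edgeR quasi-likelihood, adjusted p = 0.963). Of 14 surfactant and lamellar body genes tested, 1 rose, 1 fell and 12 did not pass, with a median log2 fold change of -0.27 against 0.01 over all genes. The one that fell, Scd1, encodes stearoyl-CoA desaturase and changed by -2.02 ± 0.19 (edgeR adjusted p = 0.000176). Pgc, pepsinogen C, rose by 0.76 ± 0.22 (edgeR adjusted p = 0.0429), a call lost without Het1 (adjusted p = 0.23) or Het2 (0.148) and with sex as a covariate (0.341). Both Het libraries and KO3 are male and KO1 and KO2 female, so sex and genotype overlap in this design. Across all genes, 8.55% rose and 12.2% fell.

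Of 12 secreted products of AT2 cells outside the surfactant, 6 fell and 2 rose, with a median log2 fold change of -0.51. The complement genes Hc (C5) and C3 changed by -1.75 ± 0.16 and -1.74 ± 0.18 (edgeR adjusted p = 8.56e-05 and 0.000114). Lcn2, the siderophore-binding lipocalin, changed by -1.61 ± 0.11 and the protease inhibitor Slpi by -1.47 ± 0.22 (edgeR adjusted p = 6.94e-06 and 0.00103). With cluster 15 alone, Lcn2 stood at -0.96 and C3 at -1.60, and both calls were lost (edgeR adjusted p = 0.384 and 0.286). Sftpd, a surfactant collectin with a host-defence role, was 489 ± 41.7 CPM in Het and 233 ± 99.2 CPM in KO (SD, n = 2 and 3) and did not pass (edgeR adjusted p = 0.0947).

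Genes of the immature distal tip went the other way where they passed. Of 10 tested, 4 rose and none fell, with a median log2 fold change of 0.29. Hmga2, a chromatin protein of embryonic cells, rose by 0.80 ± 0.12 (edgeR adjusted p = 0.00131) and the RNA-binding protein gene Igf2bp1 by 0.64 ± 0.11 (0.00216). The calls for Shh (0.42 ± 0.10, edgeR adjusted p = 0.0158) and Igf2bp3 (0.42 ± 0.12, adjusted p = 0.0323) were lost without Het2, at adjusted p of 0.239 and 0.254, and that for Igf2bp3 also without Het1 (0.13). With the sex covariate they stood at 0.0939 and 0.325. In cluster 15 alone Hmga2 stood at 0.62 and no longer passed (edgeR adjusted p = 0.303).

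Of 14 glucocorticoid and AT2 regulators, 4 fell and 2 rose. Cebpd, which encodes C/EBP delta, changed by -0.96 ± 0.15 (edgeR adjusted p = 0.00159), and the glucocorticoid-induced Tsc22d3 by -0.82 ± 0.13 (0.00125, lost in cluster 15 alone at 0.608). Zbtb16 changed by -0.56 ± 0.14 (edgeR adjusted p = 0.0152) and was not called without Het1 or Het2 (0.0881 and 0.115). With doublets kept it stood at -0.08 (adjusted p = 0.78), at Leiden resolution 2 at -0.16 (0.641) and in cluster 15 alone at -0.25 (0.81), and with the sex covariate its adjusted p was 0.163. Erbb3, a receptor for neuregulins, rose by 0.93 ± 0.20 (edgeR adjusted p = 0.0135), a call also lost without Het1 (0.0724) or Het2 (0.116) and with the sex covariate (0.123).

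Among genes of the type 2 cytokine axis, under which Retnla and Chil3 are usually grouped, 4 of 9 tested fell in AT2-like cells and none rose. Arg1 (arginase) changed by -2.36 ± 0.32 (edgeR adjusted p = 0.000615) at 4.71 ± 0.991 CPM in Het, and the alarmin Il33 by -1.35 ± 0.13 (5.21e-05). The receptor gene Il4ra changed by -1.20 ± 0.15 (edgeR adjusted p = 0.000303), but at Leiden resolution 2 it stood at 0.46 (adjusted p = 0.279) and with doublets kept at -0.07 (0.888). Socs1 (-0.46 ± 0.15, edgeR adjusted p = 0.0465) lost its call in both settings, with DESeq2 (0.153) and the sex covariate (0.35), and without Het1, Het2, KO2 or KO3 (0.208, 0.244, 0.132 and 0.0558). Of 5 lysozyme, chitinase and resistin relatives tested, among them Chid1 (0.11 ± 0.14) and Ctbs (-0.10 ± 0.17), none passed (edgeR adjusted p = 0.632 and 0.732). Of 8 genes of calcium and vitamin D handling, S100a6 and S100a10 fell, by 1.08 ± 0.11 and 0.72 ± 0.11 (edgeR adjusted p = 0.000105 and 0.0014), but in cluster 15 alone S100a6 was 0.33 higher and S100a10 was -0.25, neither past the test (0.378 and 0.482). With the sex covariate S100a10 was at 0.0525.

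The genes most alike to each member over 14 classes of the Het libraries, among 12695 genes and by Pearson's r of log2(mean CPM + 1), were Cst8, Sftpa1 and Mlc1 for Lyz1 (r of 0.97 to 0.96), Cxcl15, Slc26a9 and Kcne2 for Retnla (0.98 to 0.96), Sftpa1, Mlc1 and Cst8 for S100g, and Atp6v1c2, C6 and C2cd4b for Chia1. Lyz2 was most alike to Glrx, Ly6c2 and Ccdc88b (0.96 to 0.94), Chil3 to Cd300lb, Csf3r and Rpl3l (0.97), and Chil1 less closely to Slco4c1, Pip5k1b and Vnn3 (0.89 to 0.86). The classes share libraries and free RNA, and r is a description.

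**Figure D4:**
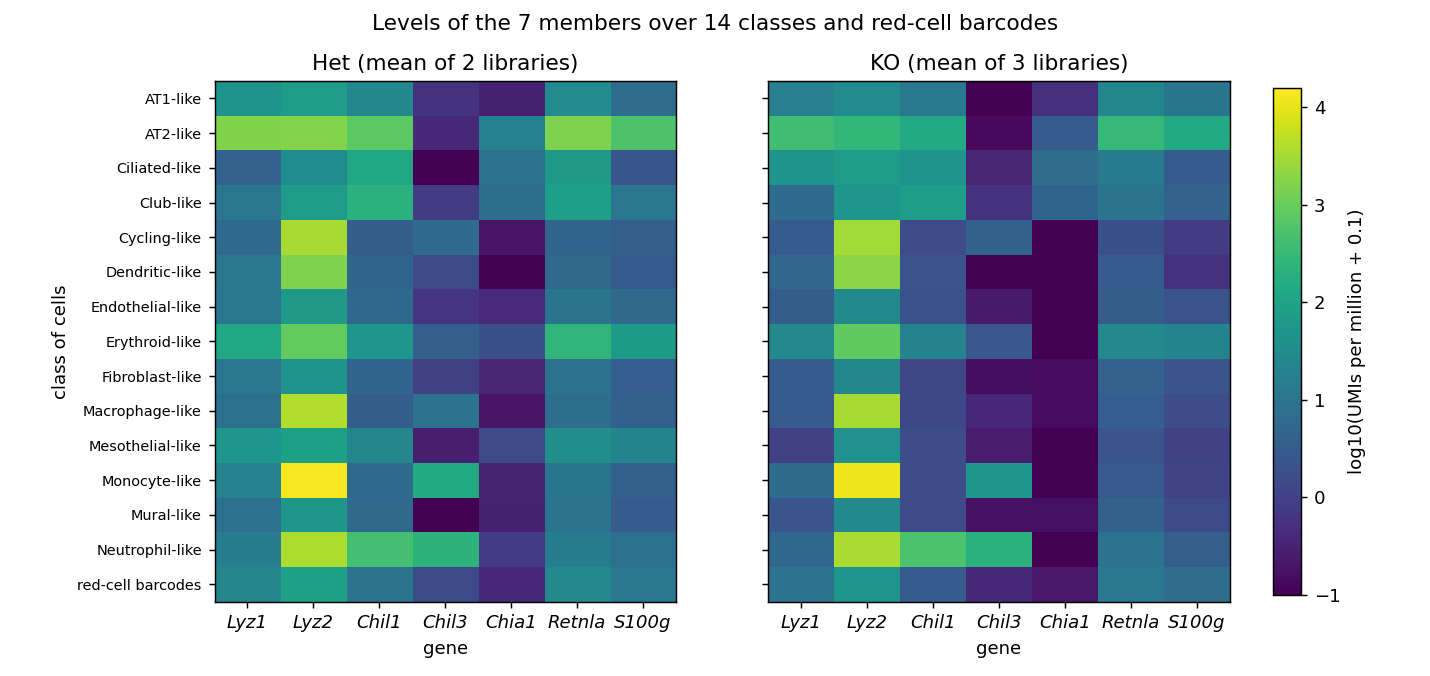
Colour gives log10(CPM + 0.1) of each member (columns) in 14 classes of cells and the red-cell barcodes (rows), as the mean of 2 Het libraries (left) and 3 KO libraries (right). Lyz1, Retnla and S100g are brightest in AT2-like cells, Lyz2 in monocyte-like cells, and Chil1 and Chil3 are bright in neutrophil-like cells of both genotypes.

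In macrophage-like cells (1191, 1150, 605, 839 and 1043 cells of Het1, Het2, KO1, KO2 and KO3), Lyz2 was above free RNA in all 5 libraries and Chil3 in the Het libraries and KO1, where it rested on 1 UMI. Retnla was at 8.35 and 6.69 CPM in the Het libraries and 4.08, 2.78 and 3.64 CPM in the KO libraries, against 32.5, 22.2, 16.8, 9.22 and 9.79 CPM in red-cell barcodes. Lyz1, S100g and Chil1 were likewise below the red-cell barcodes in all 5 libraries, and Chia1 had 1, 2, 1, 0 and 0 UMIs. Red-cell barcodes had medians of 2328 to 2621.5 UMIs against 9714 to 12676 for kept cells, so free RNA can weigh more in their CPM. A level below theirs therefore does not decide whether the class made the transcript, and the origin of these UMIs was not tested. The red-cell barcodes of the KO libraries also held less Lyz1, Retnla and Chil1 than those of the Het libraries.

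Lyz2 was at 4333 and 3782 CPM in macrophage-like cells of the Het libraries and 3679, 2966 and 3124 CPM in those of the KO libraries, a log2 fold change of -0.40 ± 0.10. The groups were separated by 103 CPM between Het2 and KO1. Of all 12595 genes tested in this class, 22.8% had KO levels wholly below the Het levels and 16.2% passed the test in either direction. Lyz2 also differed between macrophage clusters, and its difference between the genotypes was not the same in each. In cluster 0, led by Ear2, Lpl and Plet1, Lyz2 was 5190.0 and 4608 CPM in Het and 4287, 3578 and 3983 CPM in KO. In cluster 5, led by the complement genes C1qa and C1qc, it was 844 and 921 CPM in the Het libraries but 2073, 1574 and 1518 CPM in the KO libraries, higher in all 3 KO libraries, as were 16.7% of 9326 genes of that cluster. In cluster 0, 15.4% of 10809 genes lay wholly lower in KO. In the shallow cluster 16 Lyz2 was 461 and 471 CPM in Het and 4764, 1089 and 739 CPM in KO, and 19.0% of 2408 genes there lay wholly higher. Monocyte markers in cluster 5 came to 3445 and 3906 CPM in the Het libraries and 3080.0, 3111 and 3353 CPM in the KO libraries. Cluster 5 held 118 and 104 cells of the Het libraries and 225, 232 and 258 of the KO libraries, and the level over the class depends on this mix.

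Chil3 in macrophage-like cells came from few cells and was at 6.95 and 12.0 CPM in the Het libraries (114 and 199 UMIs) and 0.132, 0.278 and 0.490 CPM in the KO libraries (1, 3 and 7 UMIs). The 23 and 25 Het cells with a UMI made up about 2% of the class, and the 5 richest cells held 82 of the 114 and 117 of the 199 UMIs. Cells with 10 or more UMIs numbered 4 and 9 in the Het libraries and 0 in the KO libraries. The KO values were at the level of the red-cell barcodes (0, 0.329 and 0.510 CPM), whereas the Het values were above theirs (1.74 and 0.995 CPM). The log2 fold change was -4.87 ± 0.39, and it ranged from -5.52 to -4.30 over the other settings. Chil3 was not found in cluster 5 of any library, and all but 2 of the 114 UMIs of Het1 and all of the 199 of Het2 lay in clusters 0, 14 and 18, of which cluster 18 (Spp1, Car4, Atp6v0d2) held 165 and 186 Het cells and 5, 19 and 31 KO cells.

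The makeup of the macrophage-like class differed between the groups, with cluster 5 at 118 and 104 Het cells and 225, 232 and 258 KO cells and cluster 18 as given above, and the part of this mix in the changes over the class was not tested. Of 20 alveolar macrophage genes tested, 18 fell and 1 rose, with a median log2 fold change of -0.99 against 0.01 over all genes, and 8.37% of all genes fell. The proton pump subunit gene Atp6v0d2 changed by -4.11 ± 0.45 and the fatty acid binding protein gene Fabp4 by -3.46 ± 0.50 (edgeR adjusted p = 0.0132 and 0.0348). Both calls were lost without Het1 or Het2 (adjusted p of 0.128 to 0.209) and without KO2 (0.0503 and 0.104), and that for Fabp4 also without KO3 (0.0736), with the replicate block (0.142) and with the sex covariate (0.188). Krt79 and Ctsk changed by -3.99 ± 0.33 and -3.05 ± 0.41 (edgeR adjusted p = 1.74e-05 and 0.00673), the latter not called without KO1 (0.0817) or with the sex covariate (0.0853). Of 12 interstitial macrophage genes, 8 rose and none fell, among them Ms4a7 (1.79 ± 0.20), Maf (1.61 ± 0.08) and C1qc (1.49 ± 0.17, edgeR adjusted p = 0.00443, 2.79e-06 and 0.00291), and 7.84% of all genes rose. C1qb rose by 1.54 ± 0.26 (edgeR adjusted p = 0.0315) and was not called without Het1 or Het2 (0.152 and 0.191), with the sex covariate (0.121), or with no low-count filter or a stricter one (0.0838 and 0.0511).

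Of 15 type 2 axis genes tested in macrophage-like cells, 6 rose and 1 fell. Ccl24 (1.78 ± 0.13), Mgl2 (1.48 ± 0.15) and Clec10a (1.04 ± 0.12), which mark alternatively activated and interstitial macrophages, rose at edgeR adjusted p of 2.88e-05, 6.6e-05 and 0.000104. Tslp, an epithelial alarmin, rose by 1.35 ± 0.36 (edgeR adjusted p = 0.0264), a call lost with DESeq2 (0.112), the replicate block (0.0601) and the sex covariate (0.124), and without Het1, Het2, KO2 or KO3 (0.144, 0.246, 0.0503 and 0.0541). Arg1 stood at 12.3 and 15.4 CPM in the Het libraries and 6.62, 17.9 and 17.3 CPM in the KO libraries, which overlapped (edgeR adjusted p = 0.943). Retnla, often listed with these genes, was below the red-cell barcodes in CPM in this class, as given above.

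Neutrophil-like cells expressed Chil1, Chil3 and Lyz2, and monocyte-like cells Chil3 and Lyz2. Neither class entered the choice of the genes, and both classes were fitted after their levels had been seen. Chil1 in neutrophil-like cells was at 428 and 467 CPM in the Het libraries and 523, 527 and 567 CPM in the KO libraries. The groups did not overlap, as for 11.9% of 5362 genes in this direction (0.205% passed the test in either), and the log2 fold change of 0.18 ± 0.13 did not pass the test (edgeR quasi-likelihood, adjusted p = 0.78). Red-cell barcodes held 2.53 to 11.5 CPM. In club-like cells, secretory cells of the airway, Chil1 was at 189 and 223 CPM in the Het libraries and 32.1, 101 and 115 CPM in the KO libraries. Retnla in club-like cells was at 92.3 and 80.5 CPM in Het and at 10.0, 10.4 and 9.77 CPM in KO, against 16.8, 9.22 and 9.79 CPM in their red-cell barcodes.

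Chil3 in neutrophil-like cells was at 202 and 254 CPM in the Het libraries and 126, 187 and 318 CPM in the KO libraries, which overlapped (log2 fold change -0.19 ± 0.41, edgeR adjusted p = 0.938). Nearly all of it lay in cluster 20, led by the granule genes Ngp, Camp and Ltf, with 461 and 678 CPM in Het and 294, 522 and 782 CPM in KO. In monocyte-like cells Chil3 was at 182 and 107 CPM against 40.9, 27.1 and 111 CPM (-1.28 ± 0.75, edgeR adjusted p = 0.619). KO3 lay above Het2 there. Few monocyte-like cells held Chil3, with 43 and 24 cells with a UMI in the Het libraries and 6, 19 and 27 in the KO libraries. The 5 richest held 392 of 853 and 283 of 442 UMIs in Het, and 95 of 96, 88 of 133 and 293 of 527 in KO.

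Lyz2 was highest in monocyte-like cells, at 14524 and 13476 CPM in the Het libraries and 11457, 11369.6 and 12546 CPM in the KO libraries. The log2 fold change of -0.27 ± 0.10 did not pass (edgeR adjusted p = 0.235), and 15.7% of 10306 genes had KO levels wholly below Het and 1.32% passed the test. In neutrophil-like cells it was at 3655 and 3631 CPM against 3664, 2915 and 3689.6 CPM, which overlapped, while on the TMM-scaled values of the fit every KO library was below both Het libraries (-0.18 ± 0.13, edgeR adjusted p = 0.763). Beside the -2.64 ± 0.35 of AT2-like cells these are small differences, though the difference between classes was not tested. Retnla, S100g and Chil1 in monocyte-like cells were below the red-cell barcodes in all 5 libraries, and Lyz1 was above them in Het2 and KO3 alone (18.9 and 14.5 CPM).

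**Figure D5:**
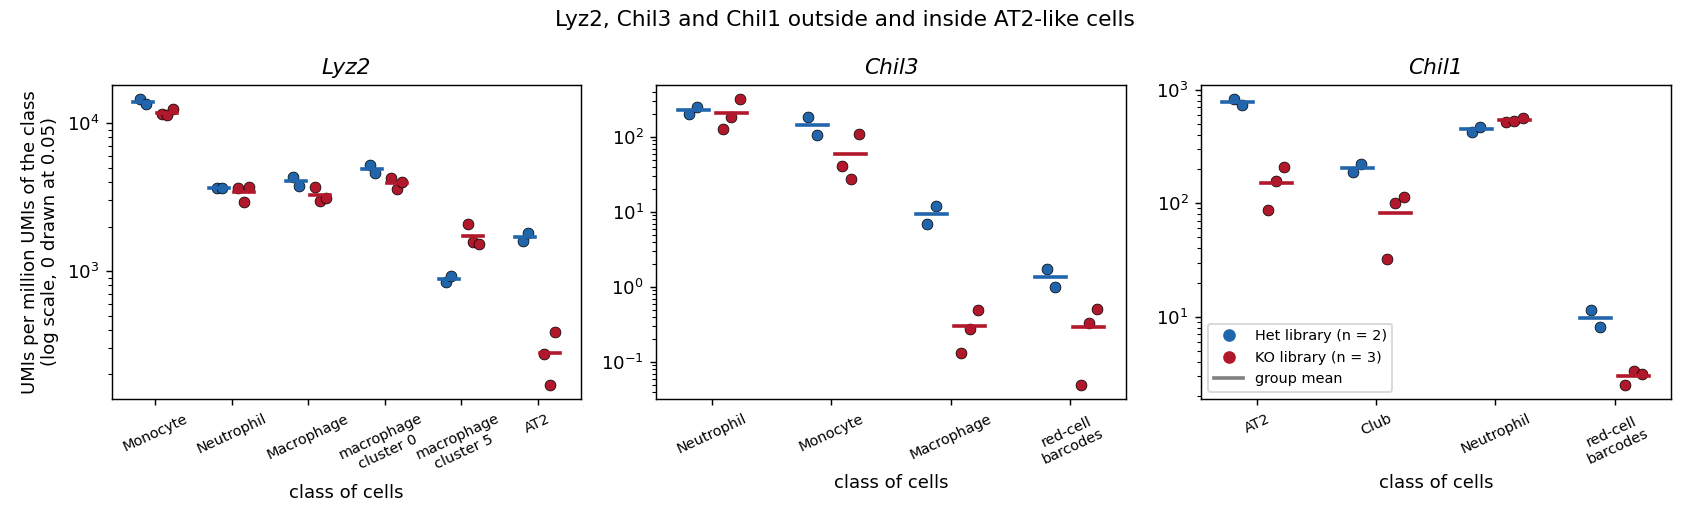
Points are libraries and short lines group means of CPM (log scale, 0 drawn at 0.05) for Lyz2, Chil3 and Chil1 in the classes named on the horizontal axis. Lyz2 is lower in KO in AT2-like cells and higher in macrophage cluster 5, Chil3 is near the red-cell level in KO macrophage-like cells, and Chil1 is lower in KO in AT2-like and club-like cells but not in neutrophil-like cells.

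Over all kept cells, without any clustering, the 7 members were each lower in every KO library than in either Het library, as were 23.6% of 17738 genes. Of the same 17738 genes, 4.14% passed the test in either direction. The log2 fold changes were -2.51 ± 0.29 for Retnla, -2.35 ± 0.30 for Chia1, -2.25 ± 0.32 for Lyz1, -2.16 ± 0.31 for Chil1, -2.14 ± 0.26 for S100g, -1.20 ± 0.44 for Chil3 and -0.52 ± 0.09 for Lyz2. Chil3 was at 20.5 and 17.4 CPM in the Het libraries and 4.73, 5.99 and 14.4 CPM in the KO libraries, and without KO3 its difference was -1.84. With sex as a covariate it was -0.44.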

How the data were processed

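The authors deposited raw UMI counts as sparse matrices, made with Cell Ranger 4.0.0 on mm10 per the submitters' processing notes; the annotation is not given in the sources used here. Each of the 5 libraries was 1 embryo lung. The members and all gene lists were chosen with earlier results of these data known. Barcodes entered with 500 or more genes and no more than 15% of UMIs from mitochondria. Doublets were scored against simulated ones (2 per barcode) and the highest scores removed at 0.8% per 1000 cells, which took 78 to 186 per library. Cells were clustered with scanpy 1.11.5 and leidenalg 0.10.2 (2000 variable genes without the members and 16 relatives, 30 components, 15 neighbours, resolution 1). Clusters were named from marker lists, and details of naming were set after clusters were seen, so class names may depart from the authors' own. Red-cell barcodes had over 50% haemoglobin UMIs.

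UMIs were summed per library and class and fitted with edgeR 4.0.16 (TMM, filterByExpr, quasi-likelihood, genotype alone, two-sided, Benjamini-Hochberg below 0.05), with DESeq2 1.42.0 as an alternative. SE is the log2 fold change divided by the root of F. Levels in the text are CPM of the class, except means ± SD of listed genes, which use the TMM-scaled sizes. Named genes are the members, Zswim8, at most 4 called genes per list with the largest change, and the 3 genes most alike to each member; Sftpc, Sftpd, Chid1 and Ctbs, and Arg1 in macrophage-like cells, were named after their values had been seen. Tested on simulated counts (200 genes shifted by 1 on the log2 scale), the AT2-like fit recovered 70% with 16 false calls among 13745 genes, the macrophage-like fit 79.5% with 19 among 12595 and the whole-library fit 64.5% with 13 among 17738. The monocyte-like fit recovered 74% with 18 among 10306. The neutrophil-like fit recovered the least, 53.5% with 13 among 5362. In this order the 5 fits made 140, 159, 129, 148 and 107 true calls. In each, false calls were a larger share of all calls than the threshold of 0.05. Shares of genes without overlap in single clusters use unscaled CPM of genes with at least 50 UMIs over the 5 libraries. Monocyte-like and neutrophil-like fits were added after their levels had been seen. Sequences are from RefSeq (GRCm38.p6), which matched 7 of 7 members.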

Additional observations from a re-analysis of the deposited data

Results flagged for a closer look

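Chil1 had KO libraries wholly on opposite sides of the Het libraries in 2 classes of cells. In AT2-like cells every KO library was below both Het libraries (log2 fold change -2.41), and in neutrophil-like cells every KO library was above both (0.18 ± 0.13, edgeR adjusted p = 0.78, which did not pass). In that direction 11.9% of genes of neutrophil-like cells did not overlap. The difference between the classes was not tested.

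Lyz2 had KO libraries on opposite sides of the Het libraries within the macrophage-like class. The log2 ratio of group means, KO over Het, was -0.31 in cluster 0, with every KO library lower, and 0.96 in cluster 5 and 2.24 in cluster 16, with every KO library higher. Of genes with at least 50 UMIs, 15.4% lay wholly lower in KO in cluster 0, and 16.7% in cluster 5 and 19.0% in cluster 16 wholly higher. These differences between clusters were not tested. In cluster 16, whose cells had 0.183 times the median UMI count, Lyz2 was at 461 and 471 CPM in the Het libraries and 4764, 1089 and 739 CPM in KO1, KO2 and KO3.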

How the results depend on the processing

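The direction of all 6 measured members in AT2-like cells was negative in each of the 17 other settings run, of which cluster 15 alone and cluster 8 alone were chosen after seeing the data. Differences were larger with doublets kept or at Leiden resolution 2, where Retnla was -3.38 in both. The count of genes past the threshold in AT2-like cells, 2846 of 13745, became 1067 with sex as a covariate. It was 427 of 9296 in cluster 15 alone and 3200 of 13329 in cluster 8 alone. With 1 KO library left out it lay between 2272 and 3388. In macrophage-like cells 2042 of 12595 became 908 with the sex covariate and 929 to 2236 with 1 library left out; library size alone moved the split from 988 higher and 1054 lower to 1481 and 664, with a median log2 fold change of 0.10. In the whole library 735 of 17738 became 2091 with DESeq2, 8 with the replicate block and 0 with the sex covariate (2554 at an unadjusted p below 0.05), and 2 to 1096 with 1 library left out (2 without Het1, 3 without Het2, 341 without KO2, 94 without KO3). The AT2-like count fell to 1362 without Het1 and 1132 without Het2, the macrophage-like count to 1004 and 929. The fits added after seeing the levels gave 136 genes in monocyte-like cells (88 with DESeq2, 443 with no low-count filter, 377 with the replicate block, 5 with the sex covariate, 17 to 483 with 1 library left out) and 11 in neutrophil-like cells (6 with DESeq2, 5 with library size alone, where 2 higher and 9 lower became 2 and 3 and the median log2 fold change 0.10, 84 with no filter, 0 with the sex covariate and 292 at an unadjusted p below 0.05, 1 to 94 with 1 library left out). Il4ra in AT2-like cells reversed to 0.46 at Leiden resolution 2, Socs1 to 0.035 with doublets kept and 0.048 at resolution 2, Maf to -0.12 and -0.028, and S100a6 to 0.33 in cluster 15 alone. Of 455 values of 27 listed genes in AT2-like cells, 61 lost the call or reversed. The cause of these changes was not tested.

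Replicate numbers 1 and 2 are shared by name only. No Het library has the number of KO3, so the replicate block leaves KO3 without weight in the genotype difference. With this block, the AT2-like and macrophage-like counts were 3343 and 2163, and Chil3 in monocyte-like cells became -2.07 (edgeR adjusted p = 1.04e-10). The edgeR adjusted p for Chil3 was 0.619 in the main fit and 0.194 without KO3 (-2.16), and nothing is read from the value with the block. Cells with UMIs of 3 or more different markers of 1 other lineage (epithelial, endothelial, mesenchymal or immune) could not be left out as planned, since 21 to 51 AT2-like cells per library would remain. Leiden resolution and clustering settings give no value for the whole library. Chia1 and Chil3 are limited by depth, at 17 to 269 and 1 to 199 UMIs per library in the class where they are described.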
